A study of Mus musculus with 88 samples.

Results

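The response to lipopolysaccharide (LPS) of cells that also received prostaglandin E2 (PGE2) was read at 4 h as the difference between LPS plus PGE2 and PGE2 alone. All samples were RAW 264.7 cells, an established mouse line with macrophage properties. The group with LPS plus PGE2 received 100 ng/ml LPS together with 10 µM PGE2, and the group with PGE2 alone received 10 µM PGE2. Both groups lasted 4 h and were hybridised on 2-colour arrays against RNA of cells left in medium for 4 h. Each group held 3 sets, a set was a dye-swap pair of 2 arrays, and sets were paired across the groups by their number. The comparison thus used 12 of 88 arrays, 6 of 44 dye-swap pairs and 2 of 15 groups. Other groups of the series enter 3 further comparisons: LPS alone at 100 ng/ml, for which the labels add lipid binding protein at 100 pM, LPS with isoproterenol (ISO, 50 nM) against ISO alone, and the same LPS plus PGE2 and PGE2 treatments at 1 and 2 h. Lipid binding protein is not named in the labels of LPS plus PGE2. The labels do not state whether sets were separate cultures, so the p-values rest on a between-set spread that may be technical.

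LPS, from the outer membrane of Gram-negative bacteria, is recognised by Toll-like receptor 4 with CD14 and MD-2. One branch of this signalling, through MyD88, activates NF-kB and MAP kinases and with them genes of cytokines and chemokines. Another branch, through TRIF, activates IRF3 and the gene of interferon beta, whose secreted product then induces interferon-stimulated genes through its receptor. PGE2, a lipid made by cyclooxygenases and PGE synthases, acts in macrophages mainly on the receptors EP2 and EP4, which raise cyclic AMP, and it is known to restrain some inflammatory cytokines and to favour others such as IL-10.

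Values are log2 ratios of treated over medium, averaged over the 2 arrays of a set and over the probes of a gene. Numerator and denominator are not named in the sources used here, so this direction is called likely: on the 6 arrays with LPS plus PGE2, 20 genes known as LPS targets had medians of 2.87 to 3.83, and on the 6 arrays with PGE2 alone of -0.05 to 0.12. After turning by dye, the 2 arrays of a set correlated across probes with r of 0.602, 0.725 and 0.850 for LPS plus PGE2 and of -0.260, -0.278 and 0.314 for PGE2 alone. Arrays of PGE2 alone with the same dye orientation correlated with r of 0.381 to 0.470, against 0.718 to 0.859 for LPS plus PGE2. Probes at exactly 0 made up 21.5 to 33.3% of an array with LPS plus PGE2 and 7.12 to 32.6% with PGE2 alone; no source used here says what a 0 means, and a gene whose arrays are at 0 is called listed at 0. In all, 10518 genes were tested, 7721 of them with a value other than 0 on at least 9 of the 12 arrays and 352 at 0 on all 12. Of 9 defining macrophage markers, 8 were on the array, 7 had values on at least 9 of the 12 arrays and 1, Lyz2, was listed at 0 on all 12. Ratios give no level of a gene, so the share of each cell type was not measured, and in bulk RNA fewer cells of a type cannot be told apart from less RNA per cell.

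LPS changed 2917 of the 10518 genes in PGE2-treated cells (27.7%; limma with set as a block, adjusted p under 0.05), and 3703 had an unadjusted p under 0.05. A fit of the 3 paired differences alone called 1109. Of the 2917 genes, 1410 were higher (13.4%) and 1507 lower (14.3%), while the median over all genes was -0.0051 on the log2 scale. Large differences were mostly upward: 343 genes rose by at least 1 on the log2 scale (3.26%) and 83 fell by at least that much (0.789%). The median standard error of a difference was 0.09, and 2828 of the 2917 genes had the same sign in all 3 pairs of sets.

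Cytokines and interferon-stimulated genes led the genes that rose. Il6, which encodes the cytokine interleukin 6, had log2 ratios of 5.01, 5.98 and 5.73 in the LPS plus PGE2 sets, against -0.16, -0.08 and 0.08 in the PGE2 sets. It was 49.4-fold higher with LPS, a log2 difference of 5.63 ± 0.55 (SE, adjusted p = 4.4e-09). Il1b, for interleukin 1 beta, had ratios of 5.31, 5.86 and 5.31 in the LPS plus PGE2 sets and of 0.29, 0.80 and 0.44 in the PGE2 sets, a difference of 4.98 ± 0.32 (adjusted p = 1.3e-12). Both genes were separated from the PGE2 sets by more than 4 log2 units in every set. They are among the genes chosen for the largest differences, so this separation is no further test. Il1b reached the table's limit of 100-fold on 2 arrays, and Il1a, for interleukin 1 alpha, on 1. Il1a differed by 4.81 ± 0.60 (adjusted p = 2.8e-07), but 3 of its 6 PGE2 arrays were at 0, its 2 probes gave 3.78 and 5.84, and with zeros taken as missing it differed by 5.89. Saa3, an acute-phase apolipoprotein gene, had ratios of 4.39, 5.04 and 4.62 with LPS plus PGE2 and of -0.03, 0.11 and -0.15 with PGE2, and was 26.0-fold higher. Cd40, a co-stimulatory receptor gene, was 25.1-fold higher.

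Among interferon-stimulated genes, Gbp2, for a guanylate-binding GTPase of cell-autonomous defence, had ratios of 4.71, 5.11 and 4.99 in the LPS plus PGE2 sets and of 0.28, 0.10 and -0.03 in the PGE2 sets. Its difference was 4.82 ± 0.20 (28.2-fold, adjusted p = 1.3e-15). Ifit2, whose product is an antiviral tetratricopeptide protein, had ratios of 4.06, 5.08 and 5.14 with LPS plus PGE2, against 0.03, 0.02 and 0.08 with PGE2 alone. It was 26.3-fold higher (4.72 ± 0.41, adjusted p = 6.2e-10), close to the 26.2-fold of Cmpk2, a mitochondrial nucleotide kinase gene, and the 23.5-fold of Ifit3. All 4 genes, likewise chosen for the size of their differences, lay near 0 in each PGE2 set and above 4 in each LPS plus PGE2 set. The remaining genes among the 15 highest were the chemokine gene Cxcl11 (22.3-fold), the guanylate-binding protein genes Gbp2b (19.9-fold) and Gbp3 (16.7-fold), the death receptor gene Fas (16.7-fold), the growth-regulated gene Phlda1 (14.0-fold) and Ifnb1, for interferon beta. Ifnb1 had ratios of 1.77, 4.64 and 4.66 in the LPS plus PGE2 sets and of -0.21, -0.11 and 0.06 in the PGE2 sets (3.78 ± 0.64, adjusted p = 3.1e-05). Its 1.77 is the mean of an array at 3.53 and an array at 0, and 1 PGE2 array was also at 0. With zeros taken as missing it differed by 4.35 (adjusted p = 2.2e-07). Gbp, Ifit and Bcl2a1 genes belong to families of similar sequence, and cross-hybridisation between members was not tested. The probes of Fas, Gbp2b and Gbp3, 2 for each gene, gave 3.45 to 5.13.

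The genes that fell most included regulators of differentiation, iron export and the cell cycle. Pax6, a transcription factor gene best known from eye and brain development, had ratios of -2.75, -1.91 and -2.42 in the LPS plus PGE2 sets, against -0.29, 0.16 and 0.05 in the PGE2 sets. It fell by 2.33 ± 0.20 on the log2 scale (5.04-fold lower, adjusted p = 5.5e-10). Id2, an inhibitor of basic helix-loop-helix transcription factors, had ratios of -2.25, -2.26 and -2.41 with LPS plus PGE2 and of -0.51, -0.05 and -0.19 with PGE2 (4.16-fold lower, adjusted p = 1e-08). Slc40a1, the gene of the iron exporter ferroportin, was 3.86-fold lower, with -2.26, -2.38 and -1.77 in the LPS plus PGE2 sets and -0.15, -0.41 and -0.0019 in the PGE2 sets. The 2 groups did not overlap for any of these genes, which were chosen for the size of their differences, so this is no further test. Also lower were Esco2, a cohesin acetyltransferase of S phase (3.62-fold), Cytip, a regulator of cytohesin (3.57-fold), Rnf227 (3.09-fold), Gmnn, an inhibitor of replication licensing (3.04-fold), Brca1, a DNA repair gene (3.03-fold), and Angpt2, for an angiopoietin (3.01-fold). Pgpep1, a pyroglutamyl peptidase, passed with -1.61 (adjusted p = 0.016), but its sets spread widely: -0.37, 0.25 and -1.67 with LPS plus PGE2 and -0.21, 1.58 and 1.67 with PGE2. Without set 3 of both groups it was -0.74 (adjusted p = 0.44).

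**Figure D1:**
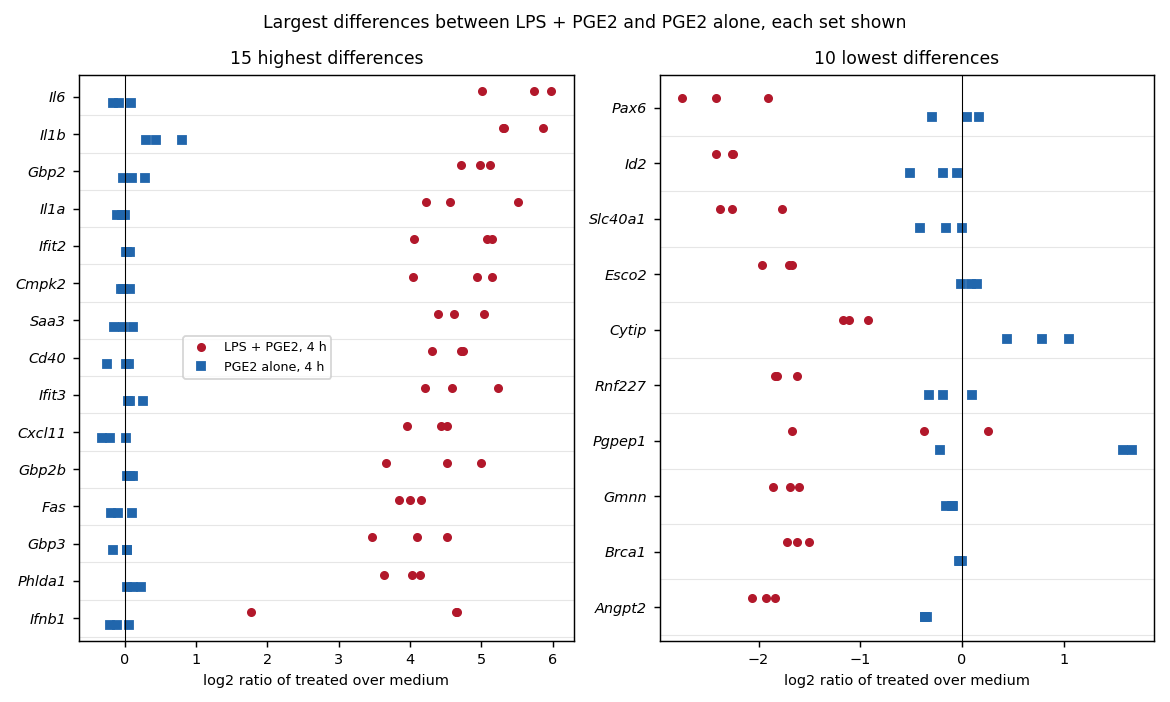
Log2 ratios of treated over medium (x axis) in each LPS plus PGE2 set and each PGE2 set at 4 h for the 15 genes that rose most and the 10 that fell most. For Il6 the LPS plus PGE2 sets lie between 5.01 and 5.98 and the PGE2 sets between -0.16 and 0.08, whereas for Pgpep1 the sets of both groups are spread out.

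Promoters of 6 of these genes are shown because they represent the cytokines, the interferon-stimulated genes and the lowest genes. Sequences are the 250 bases before the first listed start in RefSeq (GRCm38.p6), 5′ to 3′ on the gene's strand; Ifit2 and Pax6 have 2 starts listed. They lie at chr3:142620413-142620662 (plus strand), chr19:34550444-34550693 (plus strand), chr5:30012864-30013113 (plus strand), chr2:129371140-129371389 (minus strand), chr2:105668646-105668895 (plus strand) and chr12:25096093-25096342 (minus strand). Capitals mark matches, on either strand, to an interferon-stimulated response element (ISRE, GAAANNGAA), a kappaB site (GGNNTTTCC), a cyclic AMP response element (CRE, TGACGTCA) or an AP-1 site (TGANTCA); none of the matches overlap.
Gbp2: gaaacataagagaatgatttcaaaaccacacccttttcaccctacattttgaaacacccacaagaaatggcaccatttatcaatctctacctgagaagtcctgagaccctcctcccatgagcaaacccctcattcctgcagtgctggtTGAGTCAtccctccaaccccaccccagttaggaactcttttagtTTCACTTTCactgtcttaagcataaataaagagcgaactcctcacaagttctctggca
Ifit2: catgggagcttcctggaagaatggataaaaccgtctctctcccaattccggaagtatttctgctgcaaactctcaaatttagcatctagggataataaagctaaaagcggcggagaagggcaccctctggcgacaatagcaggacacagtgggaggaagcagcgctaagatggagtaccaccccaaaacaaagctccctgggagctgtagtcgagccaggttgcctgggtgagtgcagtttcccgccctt
Il6: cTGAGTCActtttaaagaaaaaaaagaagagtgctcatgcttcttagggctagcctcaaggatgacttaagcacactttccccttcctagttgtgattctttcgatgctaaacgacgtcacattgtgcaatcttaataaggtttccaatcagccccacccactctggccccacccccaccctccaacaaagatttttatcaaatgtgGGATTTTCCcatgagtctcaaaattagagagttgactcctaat
Il1b: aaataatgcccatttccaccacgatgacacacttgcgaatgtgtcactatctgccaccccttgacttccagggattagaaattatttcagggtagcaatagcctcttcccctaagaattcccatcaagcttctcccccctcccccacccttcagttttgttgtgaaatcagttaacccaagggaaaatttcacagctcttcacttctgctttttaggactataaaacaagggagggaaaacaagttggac
Pax6: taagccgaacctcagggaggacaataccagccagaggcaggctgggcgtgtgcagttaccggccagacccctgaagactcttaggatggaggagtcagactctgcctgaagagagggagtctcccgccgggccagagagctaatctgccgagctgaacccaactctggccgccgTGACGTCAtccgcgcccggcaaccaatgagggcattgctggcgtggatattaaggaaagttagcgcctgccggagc
Id2: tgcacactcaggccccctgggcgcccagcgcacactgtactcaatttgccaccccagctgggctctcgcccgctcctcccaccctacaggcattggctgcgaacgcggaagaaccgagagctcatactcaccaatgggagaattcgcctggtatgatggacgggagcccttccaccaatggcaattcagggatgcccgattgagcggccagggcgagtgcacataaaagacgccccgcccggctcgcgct
Gbp2 held an ISRE match 58 bases before the start and an AP-1 match at 102 bases. Il6 held a kappaB match at 43 bases and an AP-1 match at 249 bases, and Pax6 a CRE match at 76 bases. Ifit2, Il1b and Id2 held none of these letters in this window. Of 32851 RefSeq promoters of the same length, 7.13% held the ISRE letters, 4.93% the kappaB letters, 1.55% the CRE letters and 6.75% the AP-1 letters. A match describes the sequence only, and no binding was measured.

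Genes of secreted signals rose as a group. Of 19 cytokine genes tested, 14 rose, none fell and the median difference was 1.90, against 13.4% of all genes higher and a median of -0.0051. Tnf, for tumour necrosis factor, had ratios of 3.31, 3.74 and 3.50 in the LPS plus PGE2 sets, against 0.21, 0.15 and 0.23 in the PGE2 sets (10.0-fold higher, adjusted p = 2.5e-14). Il10, for the cytokine that limits inflammation, had 2.72, 3.58 and 3.08 with LPS plus PGE2 and -0.11, -0.50 and -0.60 with PGE2 (11.6-fold higher, adjusted p = 2.8e-10). The groups did not overlap for either gene, but both passed the test on these same sets, so this is no further test. Il15 (3.05), Csf2 (2.84), Csf3 (2.79) and Lif (1.90) also rose on the log2 scale; Csf3 reached the table's limit on 1 array. Of the 6 PGE2 arrays, 3 were at 0 for Csf3 and 5 for Lif. Il12b (-0.12), Il23a (0.24) and Tnfsf9 (0.43) did not pass. Neither did Il1rn, listed at 0 on 5 of 6 LPS plus PGE2 arrays, nor Tnfsf10, listed at 0 on 4 of 6 LPS plus PGE2 arrays and 5 of 6 PGE2 arrays, so neither was well measured. Of 17 chemokine genes, 11 rose and 1, Cxcl14, fell (-0.45). Ccl7, a monocyte chemoattractant, differed by 3.09 and reached the limit on 1 array, while 3 of its 6 PGE2 arrays were at 0 and 1 of its 3 probes was at 0 on all 12 arrays. With zeros taken as missing it differed by 4.57. Probes of several chemokine genes disagreed: those of Ccl7 gave 0, 4.28 and 4.99, those of Ccl5 -0.09 and 4.04, and those of Ccl4 0.30, 1.69 and 4.57, and with the median over probes Ccl4 (1.69) no longer passed (adjusted p = 0.090). Ccl2 and Ccl3 were listed at 0 on all 6 arrays with LPS plus PGE2. Cxcl10, a chemokine of interferon responses, was at 0 on 3 of 6 such arrays, with set values of 0.93, 2.44 and 0 (1.31 ± 0.44, adjusted p = 0.024), against 0.05, -0.32 and -0.29 with PGE2. Its 2 probes, at 0 on 6 and 3 of the 12 arrays, gave 0.19 and 2.42, and with zeros taken as missing it differed by 4.48. Without set 2 of both groups its difference was 0.58 (adjusted p = 0.27), and without set 1 it was 1.52 (adjusted p = 0.059).

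Inside the cell, 16 of 17 NF-kB subunit and feedback genes rose, none fell and the median was 1.28. Rela, for the p65 subunit, was the exception with -0.22. Zfp36, for a protein that destabilises cytokine mRNAs, had ratios of 2.73, 3.01 and 3.34 with LPS plus PGE2 and of -0.08, 0.06 and -0.22 with PGE2 (8.59-fold higher). Nfkbiz, for an atypical IkB protein, was 7.96-fold higher, with probes at 1.95 and 4.03. Tnfaip3, for the ubiquitin-editing inhibitor A20, was 5.12-fold higher, Ier3 4.92-fold and Nfkbia, for IkB alpha, 3.57-fold (adjusted p = 0.001). Of 19 genes of the Toll-like receptor pathway, 9 rose (47.4%) and 2 fell (10.5%), with a median of 0.23. Of all genes, 13.4% rose and 14.3% fell. Tlr3 (5.69-fold), Tlr1 (2.40-fold), Tlr2 (2.30-fold) and Myd88 (2.16-fold) rose. Tlr4, for the LPS receptor, had ratios of -0.48, -0.68 and -0.08 in the LPS plus PGE2 sets, against 0.11, 0.21 and 0.32 in the PGE2 sets, and was lower by the mean over its probes (-0.63, adjusted p = 0.00015). That mean includes a probe at 0 on all 12 arrays, and the other 2 probes gave -0.92 and -0.96. Cd14, for its co-receptor, did not pass (-0.15, adjusted p = 0.50).

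The group with the highest share was the interferon-stimulated effectors, where 35 of 36 rose and none fell, with a median of 2.70 and Gbp2 highest at 4.82. The remaining gene, Isg20, was listed at 0 on all 12 arrays. Mx1, for an antiviral GTPase, rose by 3.64, the ubiquitin-like modifier gene Isg15 by 3.53 and the viral RNA sensor gene Ifih1 by 3.64 on the log2 scale. Of 23 genes of interferon and STAT signalling, 15 rose (65.2%) and 2 fell (8.7%), with a median of 0.88. Of all genes, 13.4% rose and 14.3% fell. Stat2 had ratios of 2.31, 2.73 and 2.65 in the LPS plus PGE2 sets and of 0.25, 0.10 and -0.08 in the PGE2 sets (5.56-fold higher, adjusted p = 1e-11). Irf1 was 5.37-fold higher, the feedback inhibitor gene Socs1 4.50-fold, Jak2 3.54-fold and Irf7, a transcription factor gene that amplifies interferon production, 2.88-fold. The receptor genes Ifngr1 (-0.79) and Ifnar2 (-0.27) fell.

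Genes of the PGE2 and cyclic AMP pathway were counted against the 13.4% of all genes that rose and the 14.3% that fell. Of 26 receptor and cyclic AMP machinery genes, 5 rose (19.2%) and 2 fell (7.69%), with a median of 0.01. Without set 2 of both groups 3 rose, and without set 1 only 1 fell. Of 24 cyclic AMP and CREB target genes, 5 rose (20.8%) and 1 fell (4.17%), with a median of 0.17. Ptger2, for the receptor EP2, had ratios of 1.36, 2.55 and 2.14 with LPS plus PGE2 and of 0, 0.35 and 0.22 with PGE2, where 2 of 6 arrays were at 0 (3.55-fold higher, adjusted p = 0.00025). Ptger4, for EP4, was below medium in every set, with -0.34, -0.07 and -0.20 with LPS plus PGE2 and -0.61, -0.60 and -0.42 with PGE2. Its difference of 0.34 (adjusted p = 0.027) no longer passed whichever set number was left out (0.24 to 0.40, adjusted p = 0.062 to 0.25). Pde4b, for a phosphodiesterase that degrades cyclic AMP, had 2.92, 3.71 and 3.04 with LPS plus PGE2 and 0.18, 1.08 and 0.60 with PGE2 (6.08-fold higher, adjusted p = 4.4e-08). Hilpda, for a lipid droplet protein, was 4.22-fold higher. Adcy9 (-0.38), for an adenylyl cyclase, and Creb1 (-0.21), for the factor that binds the CRE, fell. The CREB target genes Nr4a1 (0.35, adjusted p = 0.34) and Rgs2 (0.49, adjusted p = 0.11) did not pass. Of 15 eicosanoid genes, 4 rose (26.7%) and 4 fell (26.7%), with a median of 0, and without set 2 of both groups 2 fell. Ptgs2, for the inducible cyclooxygenase, had ratios of 2.15, 3.89 and 3.67 in the LPS plus PGE2 sets and of 0, 0.18 and -0.19 in the PGE2 sets (9.46-fold higher, adjusted p = 1.1e-05). Ptges, for the inducible PGE synthase, was 1.54-fold higher (adjusted p = 0.0015) and Ptges2 1.30-fold lower. Hpgds, for prostaglandin D synthase, was 1.49-fold lower (adjusted p = 0.034); without set 2 it was -0.45 (adjusted p = 0.27) and without set 3 -0.50 (adjusted p = 0.22).

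Of 25 immediate early genes, 13 rose and none fell, with a median of 0.70. Myc, for a transcription factor of growth, had ratios of 3.40, 2.73 and 2.63 with LPS plus PGE2 and of -0.51, -0.89 and -0.89 with PGE2 (12.9-fold higher, adjusted p = 3.3e-08). Atf3, for a stress-induced repressor, had 1.47, 1.19 and 1.59 with LPS plus PGE2 and -0.54, -1.41 and -1.08 with PGE2. PGE2 alone had lowered Atf3 against medium (mean -1.01, adjusted p = 0.00021), and its difference of 2.43 combines both sides. Egr1, a zinc finger gene, was 7.86-fold higher. Of 15 MAP kinase and phosphatase genes, 8 rose (53.3%) and 4 fell (26.7%), where 13.4% of all genes rose and 14.3% fell. With arrays centred and scaled 5 of the 15 rose and 5 fell. The kinase gene Map3k8, which acts upstream of ERK, was 5.72-fold higher and the phosphatase genes Dusp2 and Dusp6 were 4.91-fold and 2.80-fold higher (probes of Dusp2 at 0.87 to 3.14), whereas the phosphatase gene Dusp14 was 2.36-fold lower.

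Surface and effector genes of macrophages also moved. Of 22 antigen presentation and co-stimulation genes, 13 rose and none fell, with a median of 0.61. Cd274, for the ligand PD-L1, had ratios of 3.08, 3.39 and 3.70 with LPS plus PGE2 and of -0.27, -0.13 and -0.13 with PGE2 (11.9-fold higher). Cd83 was 8.22-fold and the peptide transporter gene Tap1 3.75-fold higher. The class II genes H2-Aa, H2-Ab1 and H2-Eb1 were listed at 0 on 6, 4 and 3 of the 6 LPS plus PGE2 arrays and on 5, 4 and 4 of the 6 PGE2 arrays, so they were not well measured. Of 32 macrophage receptor and identity genes, 19 rose (59.4%) and 4 fell (12.5%), with a median of 0.43. Of all genes, 13.4% rose and 14.3% fell. With arrays centred and scaled 11 of the 32 rose and 5 fell. The formyl peptide receptor gene Fpr2 was 6.44-fold higher, the sialoadhesin gene Siglec1 3.98-fold, the Fc receptor gene Fcgr1 3.39-fold and the complement receptor gene C3ar1 3.07-fold. Csf1r, for the receptor of the growth factor that maintains macrophages, had ratios of -0.42, -0.63 and -0.66 with LPS plus PGE2 and of 0.04, -0.07 and 0.14 with PGE2, and was 1.52-fold lower. PGE2 alone had moved this list too, with 10 genes higher and 2 lower than medium, where 5.45% of all genes passed, 3.15% higher and 2.3% lower.

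Of 12 genes of arginine, nitric oxide and itaconate metabolism, 7 rose (58.3%) and 2 fell (16.7%). Odc1, for the enzyme that starts polyamine synthesis, was 4.85-fold higher, Nos2, for inducible nitric oxide synthase, 3.47-fold, Gch1, for the enzyme that starts synthesis of its cofactor, 3.13-fold and Ass1, for argininosuccinate synthase, 2.70-fold. Nos2 had probes at 1.23 and 2.35. Acod1, for the enzyme that makes itaconate, counts among those that fell (-0.95) only because it was listed at 0 on all 6 arrays with LPS plus PGE2, so no fall was measured. Of 25 genes of oxidative stress and metal handling, 7 rose (28%) and 5 fell (20%), where 13.4% of all genes rose and 14.3% fell. With arrays centred and scaled 5 rose and 3 fell. The metallothionein gene Mt2 (2.85-fold) and the superoxide dismutase gene Sod2 (2.46-fold) rose, and Gclc, for the catalytic subunit that starts glutathione synthesis, fell (2.45-fold lower), as did Slc40a1. Of 15 glycolysis and glucose uptake genes, only Hk2 (1.67-fold), Slc2a1 (1.64-fold) and Pfkfb3 (1.73-fold) rose (20%) and none fell. Pfkfb3 had set values of 0.68, 1.80 and 0.87 with LPS plus PGE2 and of 0.52, 0.27 and 0.19 with PGE2, and without set 2 it no longer passed (0.42, adjusted p = 0.18). Of 14 LXR target and sterol genes, 3 rose (21.4%) and 6 fell (42.9%). The cholesterol exporter gene Abca1 (2.60-fold) and the oxysterol enzyme gene Ch25h (2.43-fold, at 0 on 2 of 6 LPS plus PGE2 arrays and 4 of 6 PGE2 arrays) rose, while Scd2, for a fatty acid desaturase, and the lipogenic factor gene Srebf1 were 2.13-fold and 1.77-fold lower. Of 25 adhesion, matrix and protease genes, 9 rose (36%) and 3 fell (12%), led by Tnc (8.09-fold), Timp1 (6.53-fold) and Plaur (4.86-fold).

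In the apoptosis and survival list, 15 of 27 genes rose (55.6%) and 3 fell (11.1%), with a median of 0.45. Of all genes, 13.4% rose and 14.3% fell, so the share of the list that fell was not raised. Among the genes that rose were the death receptor gene Fas (4.07) and Bcl2l11 (1.58), which promote cell death, and Cflar (1.91), Bcl2a1a (2.65) and Bcl2a1d (2.61), which limit it. Those that fell were Pmaip1 (-0.49, adjusted p = 0.027), which promotes cell death, and the survival genes Bcl2 (-0.55, adjusted p = 4.9e-08) and Birc5 (-0.33, adjusted p = 1.8e-07). Bcl2a1a and Bcl2a1d are near-identical copies, so their values are uncertain. Tnfrsf1b, for a TNF receptor, had ratios of 3.62, 3.93 and 3.56 with LPS plus PGE2, against 0.33, 0.54 and 0.53 with PGE2 alone (9.44-fold higher).

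Cell cycle genes fell together in count, though by small amounts. Of 33 DNA replication and S phase genes, 28 fell and none rose, with a median of -0.51, where 14.3% of all genes fell. Cdc6, which loads the replicative helicase, had ratios of -1.46, -1.62 and -1.50 with LPS plus PGE2 and of -0.04, -0.0086 and 0.01 with PGE2 (2.86-fold lower, adjusted p = 2.4e-10). Slbp, for the histone mRNA binding protein, was 2.23-fold lower and the 6 helicase genes from Mcm2 to Mcm7 fell, with differences of -0.72 to -0.26. Of 27 G2 and mitosis genes, 25 fell and none rose, with a median of -0.37. Mki67, for a proliferation antigen, had -0.99, -0.68 and -0.76 with LPS plus PGE2 and 0.02, 0.06 and 0.22 with PGE2 (1.88-fold lower). Nusap1, Ccna2 and Cenpf were 1.74-fold, 1.68-fold and 1.67-fold lower. The G2 and mitosis count was 15 without set 3 of both groups and 16 without set number as a block. Cell cycle phase was not measured.

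Of 24 heat shock and unfolded protein genes, 2 rose (8.33%) and 4 fell (16.7%), where 13.4% of all genes rose and 14.3% fell. Without the block 1 fell, and without set 2 of both groups 2 fell. Differences were -0.76 for Dnajb9 to 0.32 for Atf4 among those that passed. Among 27 markers of other cell types, 10 had values on at least 9 of the 12 arrays and 1 passed: Kdr, an endothelial receptor gene, with 1.45, 2.02 and 2.66 with LPS plus PGE2 and 0.17, 0.36 and 0.09 with PGE2 (3.58-fold higher). Of the other endothelial markers, Cdh5 did not pass (0.17) and Pecam1 was at 0 on 5 of 6 arrays of each group. Of 16 reference genes, B2m rose (0.33, the mean of a probe at 0.66 and a probe at 0 on all 12 arrays) and Tubb5 (-0.46), Polr2a (-0.33) and Gusb (-0.26) fell. These are 6.25% higher and 18.8% lower. Tubb5 no longer passed without LPS plus PGE2 set 1 (-0.28, adjusted p = 0.065), nor did Gusb without set 3 of both groups (-0.21, adjusted p = 0.099) or without PGE2 set 3 (-0.21, adjusted p = 0.051). Polr2a no longer passed whichever set number was left out (-0.34 to -0.30). Actb (0.09) and Gapdh (0.00) did not pass.

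**Figure D2:**
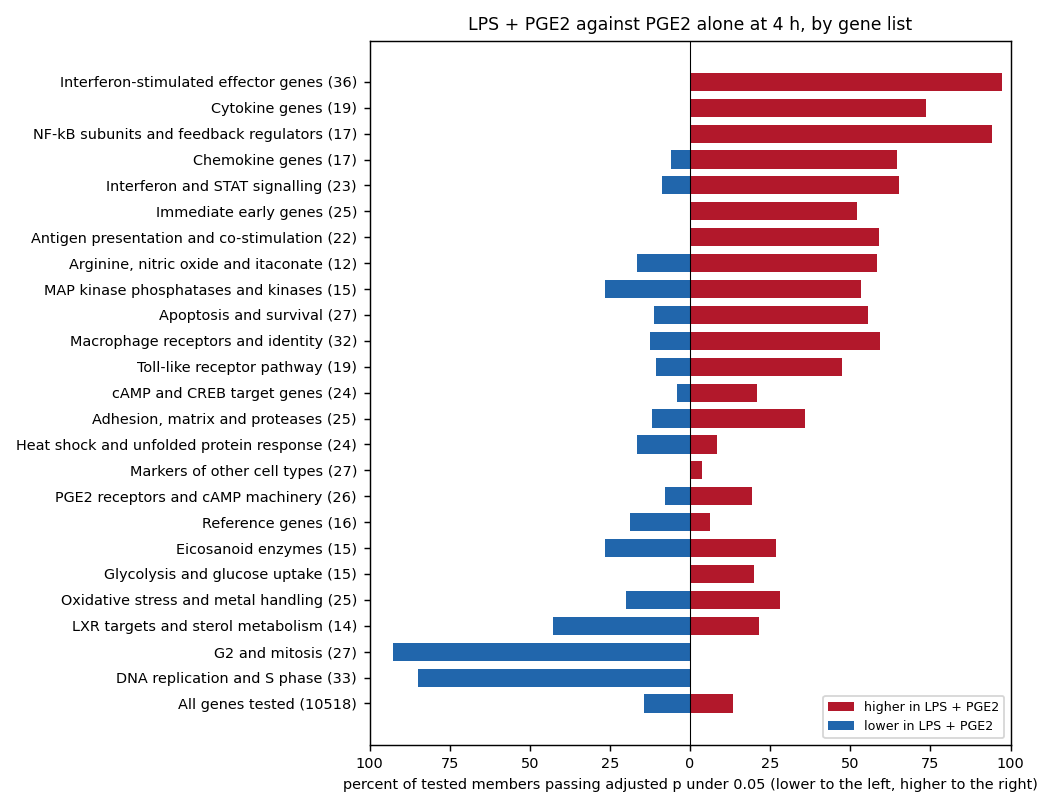
Percent of the tested genes of each list, and of all 10518 genes, that were higher or lower with LPS plus PGE2 than with PGE2 at 4 h (adjusted p under 0.05). Interferon-stimulated effectors (35 of 36 higher) and the cell cycle lists (28 of 33 and 25 of 27 lower) lie far from the 13.4% higher and 14.3% lower of all genes.

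The same LPS dose without PGE2 was compared with medium at 4 h in 3 other sets, which share no array with the 12 above. By the labels these sets also received lipid binding protein, which is not named for LPS plus PGE2. In differences from LPS alone, PGE2 and this protein therefore cannot be told apart. LPS alone changed 4090 genes (38.9%), with a median standard error of 0.06 because it is 1 group mean and not a difference between groups. Of the 2917 genes that LPS changed in PGE2-treated cells, 2682 also passed for LPS alone with the same sign, which is 91.9% of the 2917 and 65.6% of the 4090. Pgpep1 alone passed in both with opposite signs (-1.61 in PGE2-treated cells and 1.20 with LPS alone); it is named here after its values were seen, and its sets spread widely, as above. The difference between the LPS effects was tested directly, and 9 genes passed (0.0856%), 5 higher and 4 lower in PGE2-treated cells, with 491 at an unadjusted p under 0.05. The median 95% interval of this difference, not adjusted for the number of genes, reached 0.23 to either side. A typical gene needed a larger difference than this to pass the adjusted threshold. Shifts shared by sets of the same number do not cancel in the difference from LPS alone, nor in an effect against medium. With set number as a block, the standard errors, intervals and p-values of these leave such shifts out. Without the block 0 genes passed for the difference from LPS alone, with 233 at an unadjusted p under 0.05. Cytokine genes were among those with wide intervals: the difference was 0.99 for Il6 (95% interval -0.40 to 2.37), -0.09 for Tnf (-0.52 to 0.33), 0.33 for Il10 (-0.42 to 1.08) and -0.95 for Ifnb1 (-2.55 to 0.66). For Gbp2 it was -0.16 (-0.67 to 0.34), for Cdc6 0.18 (-0.14 to 0.50) and for Ptgs2 0.29 (-0.99 to 1.56). With zeros taken as missing the difference was 0.12 for Il6, -0.27 for Tnf, 0.44 for Il10, -0.38 for Ifnb1 and -0.76 for Ptgs2. None of these passed. For Il6, 1 array of set 1 of LPS alone was at 0 while the other was at 5.51. Of the 36 interferon-stimulated effectors, 35 rose in PGE2-treated cells and 35 with LPS alone, where 18% of all genes rose.

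**Figure D3:**
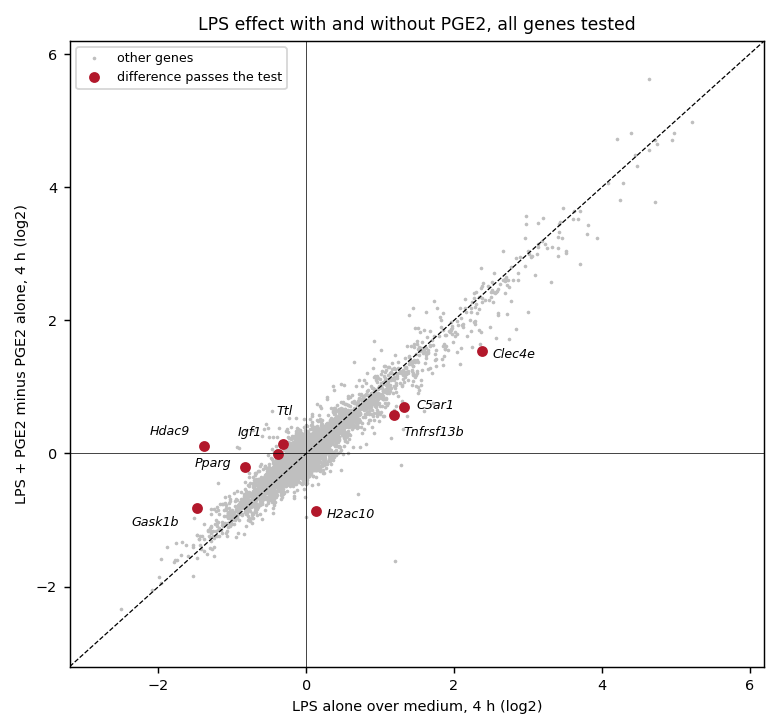
LPS alone against medium (x axis) and LPS plus PGE2 minus PGE2 (y axis) at 4 h, as log2 values per gene, with a dashed line of equality and the 9 genes that passed the test of the difference marked. Il6 and the interferon-stimulated genes lie at the upper end of both axes, and the marked Clec4e lies below the line, at 1.54 in PGE2-treated cells and 2.37 for LPS alone.

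PGE2 alone had moved each of the 9 genes against medium (adjusted p under 0.05), and that PGE2 value enters the difference with a minus sign. Of the 9, 5 were lower than medium with PGE2 alone and had an LPS effect above that of LPS alone. Gask1b, a Golgi-associated kinase gene, had ratios of -1.57, -1.59 and -1.69 with LPS plus PGE2, of -0.79, -0.78 and -0.82 with PGE2 and of -1.44, -1.47 and -1.53 with LPS alone. The LPS effect was -0.82 in PGE2-treated cells and -1.48 with LPS alone, a difference of 0.66 (95% interval 0.50 to 0.81, adjusted p = 2.7e-05). Pparg, for a nuclear receptor of lipid metabolism, had -0.66, -1.12 and -0.90 with LPS plus PGE2, -0.56, -0.85 and -0.65 with PGE2 and a mean of -0.83 with LPS alone, a difference of 0.62 (0.44 to 0.81, adjusted p = 0.00071). Its LPS effect in PGE2-treated cells, -0.21 (adjusted p = 0.037), did not pass without set 2 of both groups (-0.17, adjusted p = 0.16). Igf1, for a growth factor, had -0.38, -0.58 and -0.56 with LPS plus PGE2 and -0.43, -0.56 and -0.52 with PGE2, so that LPS made no difference that passed (-0.01), against -0.39 with LPS alone (difference 0.38, 0.27 to 0.49). Ttl, for tubulin tyrosine ligase, differed by 0.46 (0.28 to 0.63, adjusted p = 0.017). Hdac9, a class II histone deacetylase gene, had the widest difference, 1.49 (0.98 to 2.00, adjusted p = 0.0031), but 2 of its 6 LPS plus PGE2 arrays were at 0 and its sets gave -0.51, -0.72 and -1.64 with LPS plus PGE2, -1.08, -1.18 and -0.93 with PGE2 and a mean of -1.38 with LPS alone. Its LPS effect in PGE2-treated cells was 0.11 and did not pass. With zeros taken as missing that effect was -0.30 (adjusted p = 0.13), and the difference from LPS alone was 1.08 (adjusted p = 0.0044). In each of these 5 genes LPS plus PGE2, LPS alone and PGE2 alone all had means below medium.

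The other 4 were higher than medium with PGE2 alone and had an LPS effect below that of LPS alone. Clec4e, for the receptor Mincle, had ratios of 2.47, 2.67 and 2.22 with LPS plus PGE2, of 0.68, 1.03 and 1.02 with PGE2 and of 2.32, 2.58 and 2.23 with LPS alone. Its LPS effect was 1.54 in PGE2-treated cells and 2.37 with LPS alone, a difference of -0.83 (-1.11 to -0.56, adjusted p = 0.003). The complement receptor gene C5ar1 had 1.51, 1.71 and 1.60 with LPS plus PGE2, 0.78, 0.93 and 1.02 with PGE2 and a mean of 1.32 with LPS alone, a difference of -0.62 (-0.83 to -0.41). Its 2 probes went opposite ways, with differences of -1.37 and 0.13. Tnfrsf13b, for the receptor TACI, differed by -0.61 (-0.81 to -0.40), from a probe with -1.21 and another, at 0 on 10 of 12 arrays, with -0.0045; with zeros taken as missing it no longer passed (adjusted p = 0.45). H2ac10, a histone H2A gene with close copies, had 0.30, -0.04 and -0.18 with LPS plus PGE2, 1.16, 0.78 and 0.72 with PGE2 and a mean of 0.13 with LPS alone. It was 1.81-fold lower with LPS in PGE2-treated cells, a difference of -0.99 (-1.26 to -0.71, adjusted p = 0.00038). The LPS plus PGE2 sets of Clec4e overlap those of LPS alone, as do those of H2ac10. Gask1b, Pparg, Igf1 and H2ac10 passed whichever set number, or single set of LPS plus PGE2 or of PGE2, was left out. The calls of C5ar1, Clec4e and Tnfrsf13b were lost without set number 2 (-0.62, -0.78 and -0.58, adjusted p = 0.13 to 0.17) and without set number 3 (-0.60, -0.74 and -0.54, adjusted p = 0.072 to 0.16), that of Hdac9 without number 1 or 2 (1.18 and 1.39), and that of Ttl whichever number was left out (0.41 to 0.51). Without set number as a block none of the 9 passed (adjusted p = 0.16 to 1), and with arrays centred and scaled 52 genes passed. That scaling gave all arrays the same spread. Before it, the SD over probes was 0.252 to 0.282 on PGE2 arrays and 0.574 to 0.638 on LPS plus PGE2 arrays. It therefore enlarged PGE2 ratios relative to LPS plus PGE2 ratios, and its share in the changed calls was not tested. Under the scaling the LPS effects in PGE2-treated cells of Pparg (0.29), Igf1 (0.30), C5ar1 (-0.11) and Tnfrsf13b (-0.10) had the opposite sign. Those of Gask1b (-0.0092, adjusted p = 0.998) and Clec4e (0.43, adjusted p = 0.25) no longer passed, and that of Hdac9 (0.74, adjusted p = 0.0011) passed. The differences from LPS alone of Clec4e (adjusted p = 0.070) and Ttl (adjusted p = 0.068) no longer passed.

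**Figure D4:**
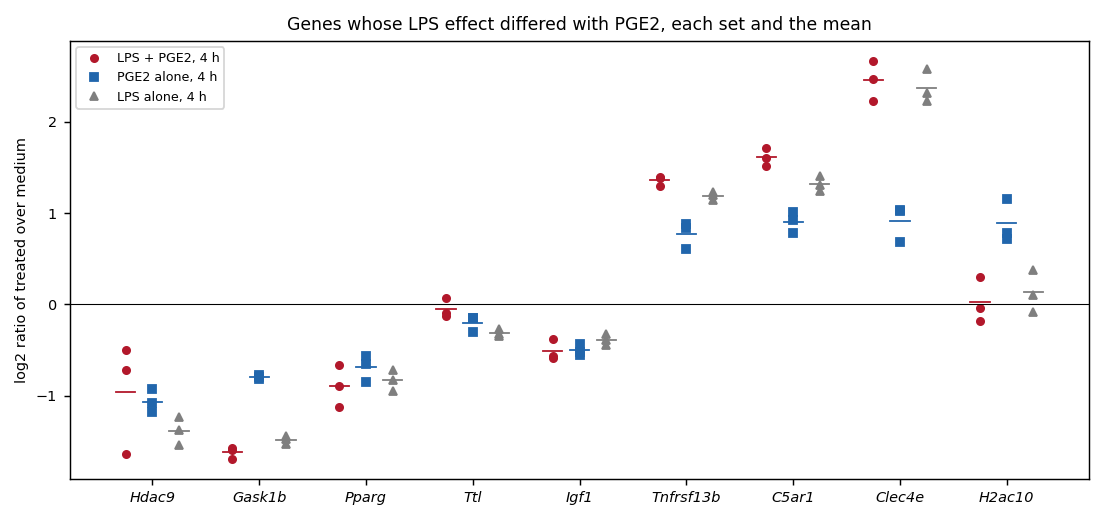
Log2 ratios of treated over medium per set, with means, for the 9 genes whose LPS effect differed, in the order LPS plus PGE2, PGE2 alone and LPS alone. For Clec4e the LPS plus PGE2 sets (2.22 to 2.67) lie at the height of the LPS sets (2.23 to 2.58), above the PGE2 sets (0.68 to 1.03).

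A second background was the beta-adrenergic agonist ISO, whose receptor also raises cyclic AMP. LPS plus ISO minus ISO changed 3035 genes at 4 h (28.9%). No gene passed the limma test of the difference between the LPS effects in PGE2-treated and in ISO-treated cells (0%), 323 had an unadjusted p under 0.05, and the median 95% interval reached 0.26 to either side. The effect of LPS was 5.63 in PGE2-treated and 5.20 in ISO-treated cells for Il6, 3.32 and 3.37 for Tnf, and 4.82 and 4.79 for Gbp2. Ptgs2 had 3.24 in PGE2-treated and 1.03 in ISO-treated cells, a difference of 2.21 (95% interval 0.74 to 3.68) that did not pass (adjusted p = 1).

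The LPS effect in PGE2-treated cells was also read at 1 h, where PGE2 had 2 sets, and at 2 h. It passed for 257 genes at 1 h (2.44%), 1195 at 2 h (11.4%) and 2917 at 4 h (27.7%), or 142, 605 and 1975 genes without set number as a block. Of the 4 h genes, 184 had passed at 1 h and 916 at 2 h with the same sign. The test of the time difference called 1328 genes between 4 h and 1 h (12.6%) and 849 between 4 h and 2 h (8.07%), or 686 and 371 without the block. Of the genes that rose at 4 h, 647 were above their 1 h effect and 441 above their 2 h effect, and of those that fell, 605 were below 1 h and 342 below 2 h. In the other direction, 36 genes that rose at 1 h and 46 that rose at 2 h had a lower effect at 4 h. Each of these counts takes genes that passed 2 tests sharing the same arrays. Genes picked for their effect at 1 time are thereby favoured to differ from another time, so the counts are no further test.

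Gene groups followed different courses. Interferon-stimulated effectors had 1, 16 and 35 of 36 genes higher at 1, 2 and 4 h, with medians of -0.0013, 0.52 and 2.70; of all genes, 1.82, 6.44 and 13.4% were higher and 0.627, 4.92 and 14.3% lower. Cytokine genes had 7, 13 and 14 of 19 higher, with medians of 0.51, 1.16 and 1.90. NF-kB subunit and feedback genes had 11, 16 and 16 of 17 higher, and immediate early genes 19, 17 and 13 of 25. S phase genes had 0, 5 and 28 of 33 lower and G2 and mitosis genes 0, 8 and 25 of 27. Late risers by the test of the difference included Ifit2, with effects of -0.18, 0.73 and 4.72 at 1, 2 and 4 h, Gbp2 (0.03, 0.71 and 4.82), Cmpk2 (-0.06, 0.78 and 4.71) and Il6 (0.51, 1.66 and 5.63). Ifi47 and Iigp1, GTPase genes of interferon responses, had 2 h effects of 0.20 and 0.05 and 4 h effects of 3.45 and 3.44. Tnf had 3.60, 3.40 and 3.32, and neither later difference passed (adjusted p = 0.61 and 0.95).

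Early responders with a smaller 4 h effect included Egr2, a zinc finger gene, with 4.19, 2.01 and 1.01 at 1, 2 and 4 h. Its 4 h value (adjusted p = 0.038) no longer passed whichever set number was left out (0.78 to 1.16, adjusted p = 0.090 to 0.29). Btg2, an antiproliferative gene, had 3.14, 1.62 and 1.22, the TNF family ligand gene Tnfsf9 2.16, 1.80 and 0.43, and Chka, for choline kinase, 1.40, 0.42 and -0.63. The 4 h values of Tnfsf9 (adjusted p = 0.18) and Chka (adjusted p = 0.059) did not pass. Id3, a relative of Id2, passed with opposite signs, at 0.77, 0.51 and -0.87. Txnip, for a thioredoxin inhibitor that limits glucose uptake, fell early, with -1.88, -2.08 and -0.46. Its 4 h value (adjusted p = 0.037) no longer passed whichever set number was left out (-0.55 to -0.33). Genes with a later fall were Pax6 (-0.33, -0.94 and -2.33), Slc40a1 (-0.09, -0.99 and -1.95), Gmnn (-0.23, -0.54 and -1.61) and Brca1 (-0.14, -0.67 and -1.60). Id2 had -0.55, -1.57 and -2.06, and its 2 h and 4 h values did not pass the test of their difference (adjusted p = 0.45).

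**Figure D5:**
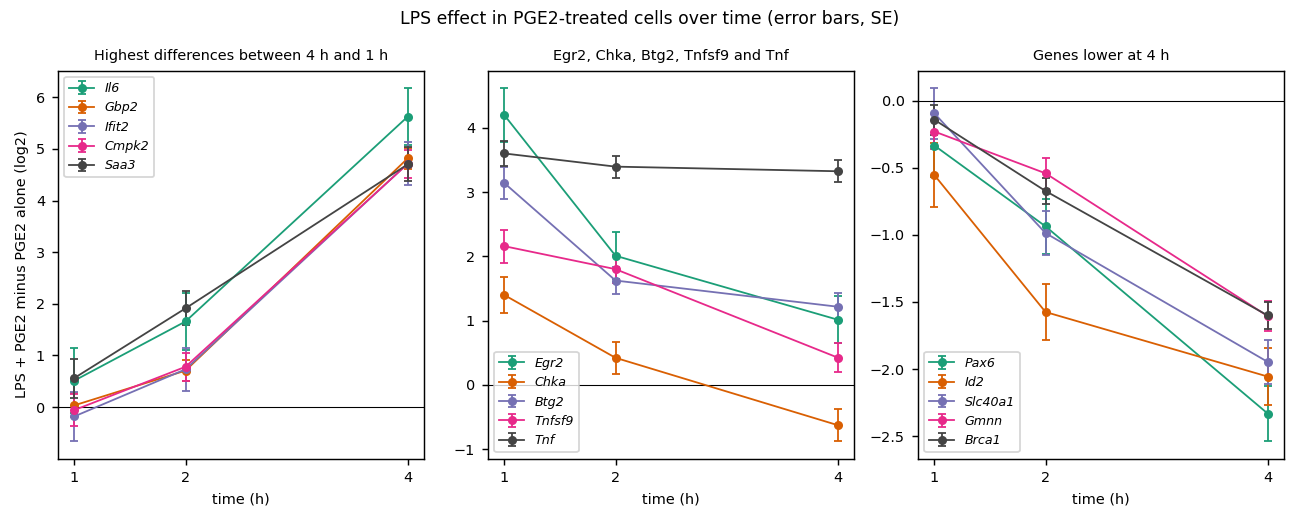
LPS effect in PGE2-treated cells (log2, LPS plus PGE2 minus PGE2, ± SE) at 1, 2 and 4 h for 15 genes in 3 panels. Il6, Gbp2, Ifit2, Cmpk2 and Saa3 are highest at 4 h, Egr2, Chka, Btg2 and Tnfsf9 highest at 1 h with Tnf near 3.3 to 3.6 throughout, and Pax6, Id2, Slc40a1, Gmnn and Brca1 lowest at 4 h.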

How the data were processed

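The authors deposited 1 table of log2 ratios per probe and array, with a limit of 6.64 (100-fold). Which dye is its numerator, how it was centred and what an exact 0 means are not given in these sources. Ratios were read as Cy5 over Cy3, turned to treated over medium by the dye labels, averaged over each dye-swap pair and over probes with 1 gene symbol in the platform annotation (13738 of 16281 probes; 478 of these were at 0 on every array and left out, and 13260 gave 10518 genes). Symbols were updated through RefSeq (13694 matched).

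In R 4.3.3, limma 3.58.1 was fitted to all 44 pair means with 15 group means and set number within each time as a block (23 residual and 3.06 prior degrees of freedom), and p-values were adjusted over all genes by the Benjamini-Hochberg method. Tests were two-sided. Set numbers come from the labels. Deviations of same-numbered sets from their group means correlated with r of 0.217, 0.223 and 0.399 across genes, so the numbers were taken to pair the sets. Between other numbers r was -0.247 to 0.035. With each group centred on its own mean, positive values for same numbers push these below 0, so they add little. The check used the same data as the tests. Depth is not defined for arrays, and their number limits the precision. The script was tested on simulated data.

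Named genes were the 15 highest and 10 lowest that passed with the same sign in every pair, the 4 largest that passed in each of 24 gene lists, up to 8 in each direction for each tested difference, and a fixed list of known genes, of which 1 is not reported here. Further genes are named from the lists. Members and lists were chosen with earlier results of these data known. Alternatives were the fit without the block, other subsets of arrays, dyes, probes and zeros, scaled arrays, and each set number or single set left out. Leaving out a set number, also written as a set of both groups, removed that set of LPS alone too.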

Additional observations from a re-analysis of the deposited data

Results flagged for a closer look

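By the test of the difference with set number as a block, the LPS effect in PGE2-treated cells at 4 h differed from LPS alone in 9 genes. On the log2 scale these were Hdac9 (1.49), Gask1b (0.66), Pparg (0.62), Ttl (0.46), Igf1 (0.38), Tnfrsf13b (-0.61), C5ar1 (-0.62), Clec4e (-0.83) and H2ac10 (-0.99). Without the block 0 genes passed.

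Between 4 h and 1 h, the named genes whose LPS effect in PGE2-treated cells was larger at 4 h were Il6 (5.11), Ifit2 (4.90), Gbp2 (4.78), Cmpk2 (4.77), Saa3 (4.14), Gbp2b (4.00), Cxcl11 (3.91) and Gbp3 (3.75). Those with a smaller or more negative effect at 4 h were Acod1 (-4.01), Egr2 (-3.18), Chka (-2.02), Pax6 (-2.00), Btg2 (-1.92), Slc40a1 (-1.85), Tnfsf9 (-1.73) and Tcim (-1.68).

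Between 4 h and 2 h, the effect was larger at 4 h for Gbp2 (4.11), Ifit2 (3.99), Il6 (3.97), Cmpk2 (3.93), Gbp2b (3.70), Iigp1 (3.39), Ifi47 (3.25) and Ms4a4c (2.98). It was smaller or more negative for Acod1 (-5.41), Pgpep1 (-2.27), Ccl2 (-2.16), Bhlhe40 (-1.60), Gadd45a (-1.46), Pax6 (-1.40), Dusp14 (-1.40) and Id3 (-1.38). Acod1 and Ccl2 were listed at 0 on all 6 arrays with LPS plus PGE2 at 4 h, so their values are not measured falls. The probe of Acod1 had effects of 3.06 at 1 h and 4.46 at 2 h.

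Outside the named genes, 2034 probes with no single gene listed had a value other than 0 on at least 1 array. Of these, 473 passed for LPS plus PGE2 against PGE2 at 4 h, 218 higher and 255 lower, and the largest was 7.28-fold higher.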

How the results depend on the processing

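The number of genes that LPS changed in PGE2-treated cells at 4 h was 2917 with the replicate block and 1975 with no replicate block. It was 2607 with the 4 h groups alone and 2085 with arrays centred and scaled. The 3 paired differences alone, which leave few degrees of freedom, gave 1109. Leaving out a set number or a single set gave 2260 to 2626. A filter chosen after seeing the data, without genes at 0 on all arrays of a group, gave 2955. The count of genes that differed from LPS alone (9) was 0 with no replicate block and 5 with the 4 h groups alone. It was 16 with treated RNA in Cy5 only and 52 with arrays centred and scaled. Leaving out a set number or a single set gave 5 (without set number 3) to 13. The count that differed from ISO-treated cells (0) was 0 to 1 with single sets left out, the 1 without LPS plus PGE2 set 1. With no replicate block, 142 genes passed at 1 h, 605 at 2 h, 686 between 4 h and 1 h and 371 between 4 h and 2 h. Of 134 named genes, 84 kept direction and call under every alternative run. Effects that passed in the main fit or the alternative and reversed did so with arrays centred and scaled: Pparg (0.29), Igf1 (0.30), C5ar1 (-0.11) and Tnfrsf13b (-0.10). The effect of Hdac9 turned from 0.11 to -0.30 with zeros taken as missing, and passed in neither of these fits. Where a call was lost for reasons other than fewer sets or arrays, the cause was not tested. Signal over background is not in the table, so dim probes could not be set apart from probes without change.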
